A study of Homo sapiens with 28 samples.

Results

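The genes described here carry glucose to the pyruvate dehydrogenase complex: 34 genes that were fixed by name, out of 58278 genes counted in the series. They comprise 2 glucose transporters, 2 hexokinases, 7 genes of upper glycolysis, 3 enzymes that set the level of fructose-2,6-bisphosphate, 6 genes of lower glycolysis, 4 genes of lactate making and monocarboxylate transport, 4 pyruvate dehydrogenase kinase or phosphatase genes, 4 subunits of pyruvate dehydrogenase and 2 subunits of the mitochondrial pyruvate carrier. No measured value was used as a rule to choose them, but earlier results of these data were known when they were listed. All 34 had enough counts to be tested in tumors and in cultures.

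The samples were 28 poly(A) RNA-seq libraries of HCT116, an established human colorectal carcinoma cell line that here carried luciferase and GFP. 16 libraries came from subcutaneous xenografts in immunodeficient male NOD SCID mice, which were 5 weeks old at injection and were treated for 23 days. They received vehicle (Control, 3 tumors), the CDK4 and CDK6 inhibitor Palbociclib at 100 mg/kg/day (5 tumors), the glutaminase inhibitor Telaglenastat, spelled Telaglenestat in the sample labels, at 150 mg/kg/day (4 tumors), or both drugs at those doses (Combination, 4 tumors). The other 12 libraries were cultures, 3 per condition, started ex vivo from such tumors and grown without drug. A culture named for a drug is thus one whose tumor of origin had received it. No label pairs a culture with a sequenced tumor, and none names a batch.

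Glycolysis splits glucose into pyruvate in the cytosol, and its flow is set largely by glucose entry, the hexokinases and phosphofructokinase. Pyruvate is then either reduced to lactate, which leaves the cell through monocarboxylate transporters, or carried into the mitochondrion and oxidized by pyruvate dehydrogenase, which its kinases switch off and its phosphatases switch on. Many of these genes are classic targets of the hypoxia-inducible factor, and colon carcinoma cells are known for high glucose use. Glutamine, whose use Telaglenastat blocks, is the other main carbon source of the mitochondrion.

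Levels are given as CPM, the counts of a gene scaled to a common library size, with library sizes adjusted by edgeR's TMM method over the 28 libraries and SD over libraries. Differences between tumors were fitted on library sizes adjusted over the 16 tumors alone, so a fitted difference need not equal the log2 ratio of the CPM printed beside it. Differences are log2 fold changes ± standard error from edgeR's quasi-likelihood test, and a gene was called when its p, adjusted by the Benjamini-Hochberg method over all genes tested, was under 0.05. Libraries held between 6273834 and 13815675 counts, and the 34 genes took 2.41% ± 0.149 of them in Control tumors (SD, n = 3), 2.25% ± 0.294 in Palbociclib tumors (n = 5), 1.54% ± 0.0398 in Telaglenastat tumors (n = 4), 1.52% ± 0.0884 in Combination tumors (n = 4) and means of 1.27% to 1.47% in the 4 groups of cultures. Of 8 epithelial markers all but CDX1 were detected in every group, and in Control tumors 4 of 6 fibroblast markers were detected (summing to 151 to 192 CPM, with DCN and LUM at 0), as were 3 of 4 endothelial markers (0.837 to 1.77 CPM, with CDH5 at 0) and 5 of 5 leukocyte and macrophage markers (14.7 to 19.8 CPM). The reads came from whole tumors and were aligned to the human genome, and in such bulk samples fewer cells of a type and less RNA per cell cannot be told apart.

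GC-rich genes had relatively more counts in some libraries than in others, and in tumors this split followed treatment. The slope with GC content, as the log2 deviation from the mean of the libraries per SD of GC content, ranged from 0.248 to 0.259 in Control tumors and from 0.0972 to 0.364 in Palbociclib tumors, against -0.39 to -0.304 in Telaglenastat tumors and -0.285 to -0.161 in Combination tumors. Most differences are therefore also given after each library's trend with GC content and exonic length was taken out, and that value is called corrected. Differences with no corrected value beside them, all CPM and all marker sums are as deposited and carry this trend. GC-linked counting and treatment cannot be told apart by the design. The libraries Palbociclib tumor 2 (slope 0.0972), Telaglenastat culture 2 (slope 0.423) and Control culture 2 (slope -0.0707, where Control cultures 1 and 3 had 0.148 and 0.179) stood apart from the others of their groups. Called values that lost their call or moved by over 1.5 times without one of them are given both ways.

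In Control tumors the most abundant transcripts per length belonged to lower glycolysis. On the scale of CPM per kilobase of annotated exon, GAPDH, the dehydrogenase that starts the energy-yielding phase, led at 1748 ± 215 (SD, n = 3), and ENO1, the main enolase, followed at 545 ± 40.9. LDHA, the lactate dehydrogenase subunit that favors lactate, stood at 374 ± 33.5, TPI1, triose phosphate isomerase, at 352 ± 39.4 and LDHB, the subunit found in oxidative tissues, at 316 ± 30.4. The neighbors LDHA, TPI1 and LDHB differed by about their SDs. At the bottom were the pyruvate dehydrogenase kinases PDK1, PDK2 and PDK3, at 6.26, 3.78 and 2.33, and PFKFB2, a phosphofructokinase-2 isoform, at 2.43. The annotated exons of PDK1 include long 3′ parts, which lowers its value per kilobase. In Control cultures the order differed near the top. LDHB followed GAPDH at 555 ± 34.2, above LDHA at 256 ± 26.6, and PDP1, the phosphatase that reactivates pyruvate dehydrogenase, came next to LDHB at 335 ± 12.1, a value it shared within its SD with ENO1 at 325 ± 45.6.

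**Figure D1:**
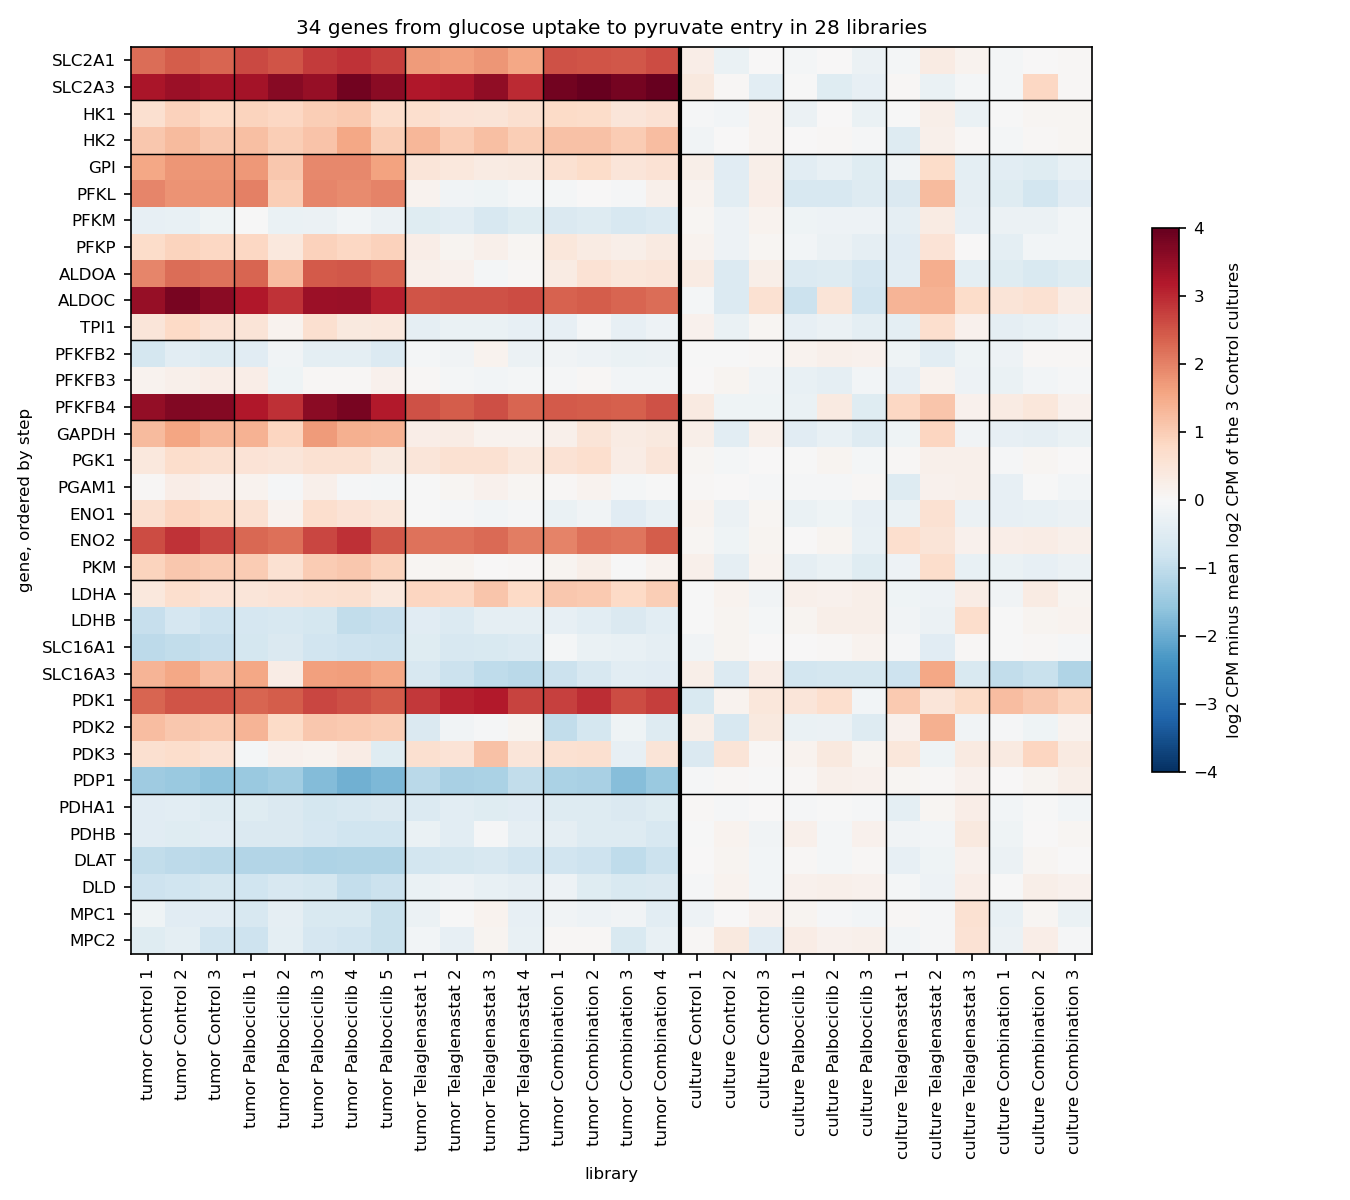
Heatmap of the 34 genes (rows, ordered by step) in all 28 libraries (columns, tumors left of the thick line). Color gives log2 CPM minus the mean log2 CPM of the 3 Control cultures, red for higher. SLC2A1, SLC2A3, ALDOC, PFKFB4, ENO2 and PDK1 are red in all 16 tumors, PDP1 and DLAT are blue in all of them, and PFKL, ALDOA and SLC16A3 are red in Control and Palbociclib tumors and near or below culture level in Telaglenastat and Combination tumors.

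Control tumors were first compared with Control cultures, which sets whole xenografts, with any mouse cells they held, against HCT116 cells in a dish. The sources used here describe no step that removed mouse reads, and their part in the differences was not tested. Glucose transporters, both hexokinases, aldolases, enolases and PDK1 were higher in tumors, while all 4 pyruvate dehydrogenase subunits, PDP1, LDHB and the lactate and pyruvate transporter SLC16A1 were lower. Of the 34 genes, 20 were higher and 9 lower (edgeR, adjusted p under 0.05), beside 23.1% of the 15466 genes tested that were higher and 22.8% that were lower. Corrected, 18 were higher and 9 lower, beside 17.7% and 22.6% of all genes, and 24 of the 34 were called in the same direction both ways. The groups did not overlap for 31 of the 34, beside 59.2% of all genes tested. Without Control culture 2, 30 genes were called. The median log2 fold change was 0.68 over the 34 genes and 0.07 over all genes (corrected 0.41 and -0.03).

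The largest rise in the counts as deposited was that of PFKFB4, a phosphofructokinase-2 isoform that makes and breaks down fructose-2,6-bisphosphate, the activator of phosphofructokinase. It stood at 80.9, 92.4 and 91.6 CPM in Control tumors 1 to 3 and at 9.16, 6.27 and 6.27 CPM in Control cultures, a difference of 3.60 ± 0.23 in log2 (adjusted p = 1.4e-12, corrected 3.11). ALDOC, an aldolase best known from brain, stood at 155, 194 and 171 CPM in tumors and at 13.1, 9.60 and 21.4 CPM in cultures (3.57 ± 0.25, adjusted p = 1.61e-11, corrected 3.12). SLC2A3, the high-affinity glucose transporter GLUT3, stood at 151, 167 and 158 CPM in tumors against 20.9, 16.1 and 11.7 CPM in cultures (3.28 ± 0.20, adjusted p = 9.62e-13), and rose most on the corrected scale (3.42). In each of these genes every Control tumor was far above every Control culture. ENO2, the neuronal enolase, stood at 203, 246 and 214 CPM in tumors and at 35.2, 29.4 and 36.2 CPM in cultures (2.72 ± 0.16, adjusted p = 4.59e-13, corrected 2.18), again without overlap.

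The other steps followed in smaller amounts. SLC2A1, the widespread glucose transporter GLUT1, was 2.32 ± 0.12 higher in log2 in Control tumors (adjusted p = 1.64e-14, corrected 1.97), and the hexokinases HK2 and HK1, which trap glucose in the cell, were 1.14 ± 0.14 and 0.79 ± 0.12 higher. In upper glycolysis 6 of 7 genes were higher, led after ALDOC by ALDOA, the main aldolase (2.08 ± 0.33, adjusted p = 1.1e-05, corrected 1.56), PFKL, the liver-type phosphofructokinase (1.83 ± 0.30, corrected 0.78), and GPI, glucose-6-phosphate isomerase (1.66 ± 0.21, corrected 1.11). PFKP, the platelet-type phosphofructokinase, and TPI1 rose by 0.81 and 0.61 and lost their calls after correction (0.21, adjusted p = 0.128, and 0.05, adjusted p = 0.695). PFKM, the muscle type, was the exception at -0.27 ± 0.12 (adjusted p = 0.0702), called lower once corrected (-0.44, adjusted p = 0.000754). Of the other enzymes of fructose-2,6-bisphosphate, PFKFB2 was lower (-0.54 ± 0.12, corrected -0.44) and PFKFB3 was not called (0.20 ± 0.12, adjusted p = 0.177, corrected -0.34, adjusted p = 0.0291). In lower glycolysis GAPDH, PGK1, ENO1, ENO2 and PKM were higher with and without correction, and PGAM1, phosphoglycerate mutase, at 0.16 with a 95% interval from -0.08 to 0.41, was not called.

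Around pyruvate the genes went in opposite directions. LDHA was higher in tumors by 0.55 ± 0.12 in log2 (adjusted p = 0.00076, corrected 0.72), while LDHB was lower by 0.81 on that scale (-0.81 ± 0.15, adjusted p = 7.91e-05, corrected -0.55). Within each library LDHA made up 54.2% ± 0.535 of the CPM per kilobase of both subunit genes in Control tumors and 31.5% ± 0.967 in Control cultures (SD, n = 3 each), so the order of the subunits turned. SLC16A3, the lactate exporter MCT4, rose by 1.35 ± 0.38 (adjusted p = 0.00504) but not after correction (0.25, adjusted p = 0.282). SLC16A1, the transporter MCT1, fell: it stood at 133, 141 and 147 CPM in tumors against 252, 301 and 278 CPM in cultures (-0.98 ± 0.10, adjusted p = 2.39e-08, corrected -0.78). No tumor value reached the lowest culture value.

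At the gate to the mitochondrion a kinase rose and the subunits fell. PDK1 stood at 85.7, 96.7 and 96.9 CPM in Control tumors and at 11.1, 18.7 and 23.4 CPM in Control cultures (2.40 ± 0.20, adjusted p = 2.67e-10, corrected 2.52). PDK2 was higher by 1.07 ± 0.29 (corrected 0.46, adjusted p = 0.0478), and PDK3 only after correction (0.58 as deposited, adjusted p = 0.0781, corrected 0.84, adjusted p = 0.00668). PDP1 went the other way, from 1832, 1956 and 1848 CPM in cultures to 699, 669 and 619 CPM in tumors (-1.50 ± 0.12, adjusted p = 2.33e-10, corrected -1.25). DLAT, the acetyltransferase core of pyruvate dehydrogenase, was lower by -1.05 ± 0.10 (adjusted p = 4.08e-09, corrected -0.78), the dehydrogenase subunit DLD by -0.78 ± 0.11 (corrected -0.43) and the catalytic subunits PDHA1 and PDHB by -0.46 ± 0.10 and -0.47 ± 0.12. Corrected, PDHB no longer passed (-0.25, adjusted p = 0.0642). The pyruvate carrier subunits MPC1 and MPC2 stood at -0.36 ± 0.18 (adjusted p = 0.0945) and -0.59 ± 0.21 (adjusted p = 0.0226), and the MPC2 call was lost after correction (adjusted p = 0.0734) or without Control tumor 3 or Control culture 2 (-0.36 without the latter).

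**Figure D2:**
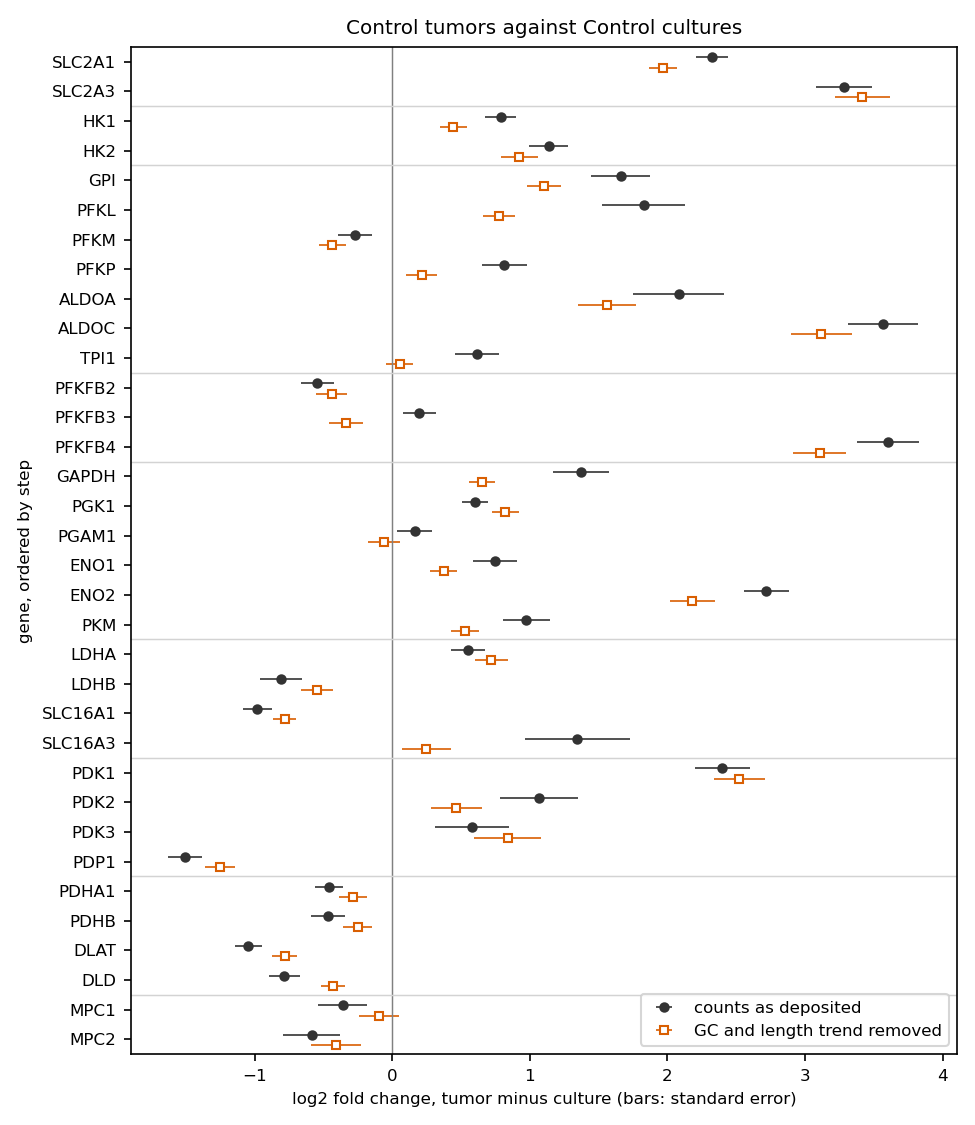
Log2 fold change of each of the 34 genes, Control tumors minus Control cultures (3 libraries each), with standard errors. Filled circles are from the counts as deposited and open squares from counts with the GC and length trend removed. The 4 highest genes, PFKFB4, ALDOC, SLC2A3 and ENO2, lie above 2 on both scales, and the 4 pyruvate dehydrogenase subunits lie below 0 on both.

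Promoter letters are shown for the genes with the largest differences between tumors and cultures among those with an entry, 4 that rose and 2 that fell, because hypoxia-inducible factors and MYC bind short motifs upstream of many of these genes. A RefSeq table of promoters (GRCh38.p14) had entries for 30 of the 34 genes, and SLC2A3, PFKFB2, SLC16A1 and PDP1 had none. Only the first entry of each gene was read. In the 250 bases upstream of each start, ACGTG and GCGTG, the core letters of the hypoxia response element, and CACGTG, the E-box, were searched on both strands, where CACGTG also counts as ACGTG on each strand. ACGTG or GCGTG occurred in 18 of 30 genes (60%) and in 43.1% of 27305 promoters of the same length, ACGTG in 36.7% and 18.7%, GCGTG in 43.3% and 31.9%, and CACGTG in 13.3% and 6.5%. The upstream bases of the 30 genes were also richer in G and C (median 70.4%, against 58.0% of all promoters). Capitals mark these letters on either strand in the sequences below, each given 5′ to 3′ on its gene's strand and ending at the base before the start: PFKFB4 (chr3:48556804-48557053, minus strand), ALDOC (chr17:28576896-28577145, minus strand), ENO2 (chr12:6914330-6914579, plus strand), PDK1 (chr2:172555123-172555372, plus strand), DLAT (chr11:112025158-112025407, plus strand) and LDHB (chr12:21657843-21658092, minus strand).
PFKFB4: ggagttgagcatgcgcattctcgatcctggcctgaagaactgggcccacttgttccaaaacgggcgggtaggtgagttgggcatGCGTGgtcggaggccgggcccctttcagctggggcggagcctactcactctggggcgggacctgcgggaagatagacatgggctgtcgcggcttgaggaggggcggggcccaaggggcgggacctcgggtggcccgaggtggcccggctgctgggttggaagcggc
ALDOC: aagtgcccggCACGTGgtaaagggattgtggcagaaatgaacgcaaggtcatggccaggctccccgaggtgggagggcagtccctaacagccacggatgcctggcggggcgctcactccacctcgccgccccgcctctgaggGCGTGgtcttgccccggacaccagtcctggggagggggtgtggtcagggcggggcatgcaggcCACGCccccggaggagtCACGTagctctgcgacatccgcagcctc
ENO2: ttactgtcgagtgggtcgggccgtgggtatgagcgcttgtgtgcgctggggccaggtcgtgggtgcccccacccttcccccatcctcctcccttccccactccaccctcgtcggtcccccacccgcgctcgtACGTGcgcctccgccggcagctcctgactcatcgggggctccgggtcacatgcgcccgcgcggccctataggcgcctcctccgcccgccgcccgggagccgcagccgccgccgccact
PDK1: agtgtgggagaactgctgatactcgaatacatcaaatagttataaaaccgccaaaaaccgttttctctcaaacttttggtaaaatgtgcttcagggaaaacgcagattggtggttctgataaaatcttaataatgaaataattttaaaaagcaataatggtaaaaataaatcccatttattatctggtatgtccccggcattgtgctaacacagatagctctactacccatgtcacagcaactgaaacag
DLAT: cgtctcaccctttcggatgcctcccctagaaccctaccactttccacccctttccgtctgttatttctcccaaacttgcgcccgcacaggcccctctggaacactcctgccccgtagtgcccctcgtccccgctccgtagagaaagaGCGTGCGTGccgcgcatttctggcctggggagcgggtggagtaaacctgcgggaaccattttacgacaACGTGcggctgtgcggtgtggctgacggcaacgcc
LDHB: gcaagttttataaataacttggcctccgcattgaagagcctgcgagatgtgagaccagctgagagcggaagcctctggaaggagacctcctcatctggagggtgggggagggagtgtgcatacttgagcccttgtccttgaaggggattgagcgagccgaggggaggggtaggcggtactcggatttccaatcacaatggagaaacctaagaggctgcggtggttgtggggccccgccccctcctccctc
PFKFB4, ALDOC and ENO2, which rose, held the letters, and so did DLAT, which fell. PDK1, which rose, and LDHB, which fell, held none in this window, and any other starts of these genes were not read.

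The direction of the pathway can be set beside other genes known to answer to low oxygen. Of 20 such genes outside glycolysis, 19 were higher in Control tumors than in Control cultures with and without correction and none was lower. Of all genes tested, 23.1% were higher and 22.8% lower as deposited, and 17.7% and 22.6% corrected. The median log2 fold change of the 20 genes was 1.58. The part of low oxygen in these differences was not tested. CA9, a carbonic anhydrase of hypoxic cells, stood at a mean of 26.8 CPM in Control tumors and 0.350 CPM in Control cultures (6.19 ± 0.47, adjusted p = 5.51e-11, corrected 5.47). HIF1A, which encodes the oxygen-regulated subunit and is controlled mainly at the protein level, stood at 233 CPM in tumors and 301 CPM in cultures (-0.37 ± 0.11, adjusted p = 0.008, corrected -0.02, adjusted p = 0.907). Summed fibroblast markers ranged from 151 to 192 CPM in these tumors and from 4.22 to 5.34 CPM in these cultures, and their part in the differences was not tested.

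Of 42 further genes listed for the pathway, 25 could be tested in this comparison, of which 7 were higher and 8 lower, beside the 23.1% and 22.8% of all genes given above. Corrected, 6 were higher and 7 lower, beside 17.7% and 22.6%. The largest were ENO3, the muscle enolase (1.98 ± 0.33, adjusted p = 1.78e-05, corrected 1.47), ARRDC4, an arrestin-like protein that removes glucose transporters from the cell surface (1.90 ± 0.32, adjusted p = 2.25e-05, corrected 2.17), SLC2A12, a further glucose transporter (1.30 ± 0.36, corrected 1.63), and BSG, the basigin chaperone of the monocarboxylate transporters (1.16 ± 0.21, corrected 0.32).

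Palbociclib tumors were compared with Control tumors to see which steps the CDK4 and CDK6 inhibitor moved. Few did: SLC2A1 was higher and ALDOC lower, and the other 32 genes were not called, beside 2.55% of 14848 genes higher and 3.6% lower. The median log2 fold change was -0.05 over the 34 genes and 7e-04 over all genes. Corrected, SLC16A1 was also called higher and ENO1 lower, which makes 2 and 2, beside 3.77% and 4.07% of all genes.

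SLC2A1 stood at 542, 615 and 572 CPM in Control tumors and at 708, 657, 788, 844 and 774 CPM in Palbociclib tumors 1 to 5. Every Palbociclib tumor was above every Control tumor (0.39 ± 0.08, adjusted p = 0.0036, corrected 0.39, adjusted p = 0.00164), and without the deviating Palbociclib tumor 2 the difference was 0.44. ALDOC stood at 155, 194 and 171 CPM in Control tumors and at 129, 104, 150, 154 and 120 CPM in Palbociclib tumors, all 5 of them lower than the lowest Control value (-0.39 ± 0.10, adjusted p = 0.0206, corrected -0.40). This call was lost without Control tumor 2, Control tumor 3 or Palbociclib tumor 5 (adjusted p up to 0.164), and when the libraries in the fit were changed.

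Of the genes that were not called, SLC16A1 stood at 0.24 ± 0.07 (adjusted p = 0.055, corrected 0.27, adjusted p = 0.0092) and SLC2A3 at 0.27 ± 0.12 (adjusted p = 0.212). PDK3, a kinase of pyruvate dehydrogenase, was lower than Control in all 5 Palbociclib tumors, at 6.99, 8.33, 8.20, 9.03 and 5.25 CPM against 11.5, 11.99 and 11.1 CPM, but did not pass (-0.60 ± 0.21, adjusted p = 0.11). In total 6 of the 34 genes had groups that did not overlap, beside 13.5% of all genes tested. For LDHA the 95% interval of the difference ran from -0.16 to 0.16 and for GAPDH from -0.27 to 0.24.

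Telaglenastat tumors differed much more from Control tumors. Aldolase, phosphofructokinase, enolase, pyruvate kinase, GAPDH and the lactate exporter SLC16A3 were lower, while LDHA, LDHB, SLC16A1, PDK1, DLAT and DLD were slightly higher. Of the 34 genes 18 were lower and 7 higher, beside 28.5% and 22.6% of the 14848 genes tested, and 26 had groups that did not overlap, beside 57.4%. Corrected, 11 were lower and 1 higher, beside 8.49% and 6.3%, and 8 genes were called in the same direction both ways. The median log2 fold change was -0.24 over the 34 genes and 0.03 over all genes, and -0.11 and 0.01 after correction.

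SLC16A3 showed the largest difference. It stood at 99.5, 112 and 91.1 CPM in Control tumors and at 24.6, 21.2, 19.1 and 18.3 CPM in Telaglenastat tumors 1 to 4 (-2.38 ± 0.23, adjusted p = 6.98e-08, corrected -0.75, adjusted p = 0.000352). ALDOA stood at 871, 1053 and 1012 CPM against 254, 253, 212 and 231 CPM (-2.15 ± 0.19, adjusted p = 3.37e-08, corrected -1.24, adjusted p = 4.55e-06). PFKL stood at 72.0, 65.6 and 65.0 CPM against 20.5, 17.0, 16.6 and 17.6 CPM (-2.02 ± 0.18, adjusted p = 3.37e-08, corrected -0.48, adjusted p = 0.00117). In these genes every Telaglenastat tumor was below every Control tumor, and the corrected difference was smaller in each. GPI stood at 815, 944 and 961 CPM against 395, 378, 353 and 363 CPM (-1.39 ± 0.14, adjusted p = 9.36e-08, corrected -0.72, adjusted p = 8.8e-05), also without overlap.

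By step, all 7 genes of upper glycolysis were lower, with a median of -1.19. Of these GPI, PFKL, ALDOA and ALDOC kept their calls after correction, where the median was -0.42, and PFKM, PFKP and TPI1 did not. PFKP changed sign, from -0.77 ± 0.10 to 0.20 ± 0.08 (adjusted p = 0.1). In lower glycolysis 5 of 6 were lower, though PGAM1 was called in only 2 of 10 alternative fits. ENO1 (-0.92, corrected -0.33) and PKM, the pyruvate kinase of tumors (-1.05, corrected -0.49), kept their calls, whereas GAPDH fell by 1.29 on the log2 scale and was at -0.08 ± 0.09 after correction (adjusted p = 0.658). ENO2 and PGAM1 turned from -0.66 and -0.19 to 0.22 and 0.19, neither of them called once corrected. PGK1, phosphoglycerate kinase, was the reverse case, at -0.17 ± 0.09 (adjusted p = 0.113) as deposited and -0.43 ± 0.08 (adjusted p = 0.00137) corrected.

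Glucose entry and the enzymes of fructose-2,6-bisphosphate were mixed. SLC2A1 stood at 371, 356, 389 and 331 CPM, all below the Control tumors at 542, 615 and 572 CPM (-0.78 ± 0.08, adjusted p = 2.34e-07), but was not called after correction (-0.19 ± 0.08, adjusted p = 0.0972). SLC2A3 was not called as deposited (-0.18 ± 0.12, adjusted p = 0.237) and was called lower corrected (-0.37, adjusted p = 0.0467). PFKFB4 was lower both ways (-1.27 ± 0.15, adjusted p = 8.4e-07, corrected -0.55, adjusted p = 0.0075). PFKFB3, the isoform with the highest kinase activity, was called lower at -0.36 ± 0.09 and higher at 0.39 ± 0.08 after correction (adjusted p = 0.0029 and 0.00113), so its direction depended on the correction. PFKFB2 was higher as deposited (0.37 ± 0.11) and not called corrected (0.12). HK1 (-0.30, corrected 0.17) also turned, and HK2 stood at -0.11, with an interval from -0.33 to 0.11.

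At pyruvate, the rises were small and none was called after correction. LDHA rose by 0.23 ± 0.09 (corrected 0.01), LDHB by 0.28 ± 0.09 (corrected 0.02), SLC16A1 by 0.30 ± 0.08 (corrected 0.08), PDK1 by 0.38 ± 0.11 (corrected 0.05), DLD by 0.39 ± 0.09 (corrected 0.00) and DLAT by 0.22 ± 0.06 (corrected -0.06). PDK2, a widespread kinase of pyruvate dehydrogenase, fell from 22.5, 20.2 and 19.4 CPM to 6.33, 8.51, 9.09 and 10.2 CPM without overlap (-1.39 ± 0.18, adjusted p = 3.04e-06, corrected -0.41, adjusted p = 0.105). PDHA1 was called lower only after correction (-0.12 as deposited, -0.30 ± 0.06 corrected, adjusted p = 0.00266). PDP1 (0.25, interval from 0.02 to 0.48, adjusted p = 0.077), MPC1 (0.15, interval from -0.14 to 0.44) and MPC2 (0.28, interval from -0.03 to 0.59) were not called.

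GC content separated the genes that were lower from those that were higher. The 18 lower genes had exonic GC contents from 50.5% to 66.0% (median 56.0%), and the 7 higher genes from 38.3% to 44.7% (median 43.3%), without overlap. Over the 34 genes GC content and log2 fold change correlated at a Pearson r of -0.90 (Spearman rho -0.90), and at -0.34 (-0.27) after correction, given as a description because the genes share libraries. SLC16A3 and PFKL, the most GC-rich of the 34 at 66.0% and 64.6%, were also among the 3 with the largest falls, and ALDOA, at 57.5%, kept the largest corrected difference. The summed epithelial markers ranged from 1590 to 1750 CPM in Telaglenastat tumors and from 2710 to 3240 CPM in Control tumors, the fibroblast markers from 48 to 61.1 CPM and from 151 to 192 CPM, and the leukocyte and macrophage markers from 3.02 to 10 CPM and from 14.7 to 19.8 CPM. Their part in the differences was not tested.

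**Figure D3:**
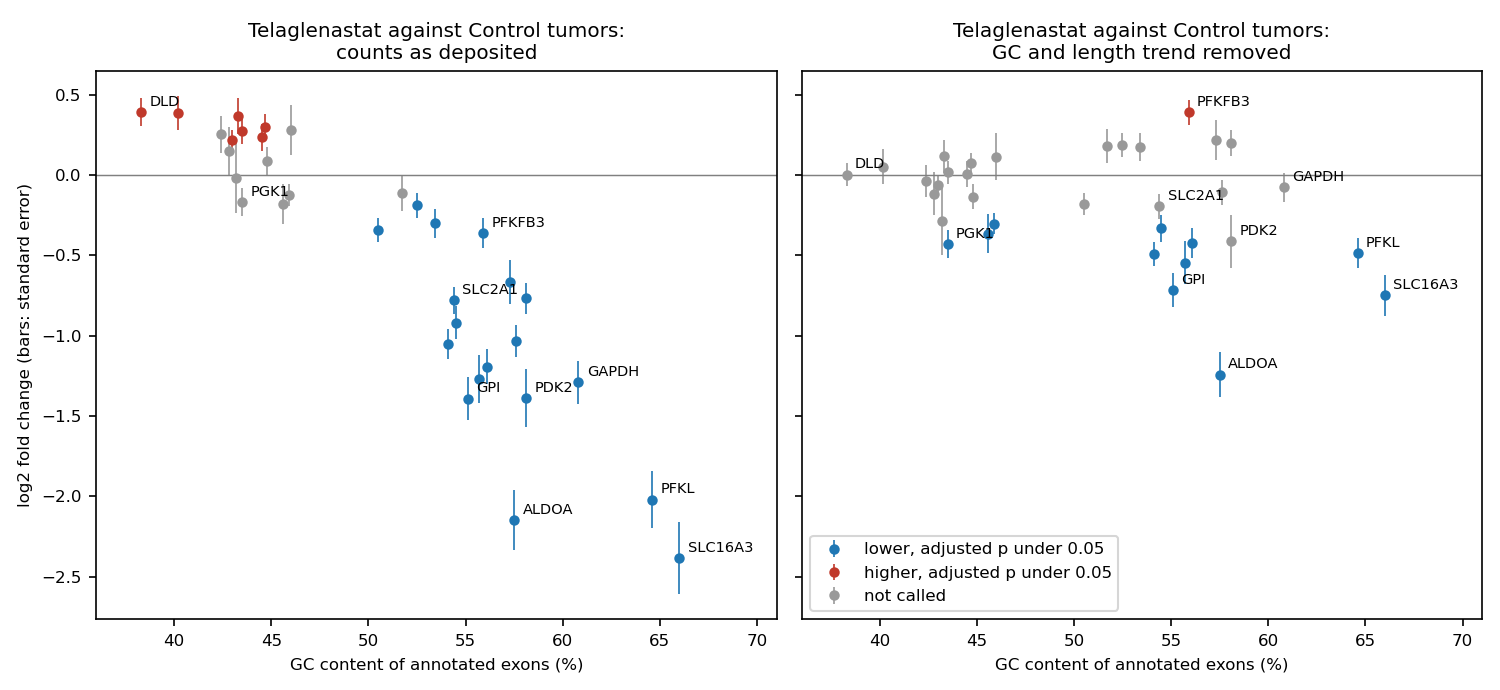
Log2 fold change of the 34 genes between Telaglenastat tumors (4) and Control tumors (3), with standard errors, against the GC content of their annotated exons, from the counts as deposited (left) and with the GC and length trend removed (right). Blue and red mark genes called lower and higher. On the left the 18 lower genes lie at 50.5% GC or above and the 7 higher genes at 44.7% or below, and on the right 11 genes stay or become called lower and PFKFB3 alone is called higher.

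In Combination tumors upper glycolysis was lower than in Control tumors, while SLC2A3 and SLC16A1 were higher. Against Control tumors 17 of the 34 genes were lower and 5 higher, beside 26.9% and 17.6% of the genes tested, and 23 had groups that did not overlap, beside 49.9%. Corrected, 14 were lower and 5 higher, beside 13.1% and 13.4%, and 13 were called in the same direction both ways. The median was -0.25 over the 34 genes and -0.04 over all genes (corrected -0.18 and 0.0036). This comparison shares its Control tumors with those of each single drug. Summed epithelial markers ranged from 2300 to 2590 CPM and fibroblast markers from 95.1 to 142 CPM in Combination tumors, both below the Control tumors, and their part in the differences was not tested.

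SLC16A3 stood at 21.0, 24.6, 28.6 and 28.1 CPM in Combination tumors 1 to 4 (-2.08 ± 0.22, adjusted p = 4.26e-07, corrected -0.71, adjusted p = 0.000266). PFKL stood at 17.7, 18.8, 18.1 and 21.3 CPM (-1.93 ± 0.18, adjusted p = 9.09e-08, corrected -0.63, adjusted p = 4.84e-05). PDK2 stood at 4.76, 5.85, 8.42 and 6.62 CPM (-1.78 ± 0.19, adjusted p = 3.41e-07), and its call held after correction (-0.96 ± 0.17, adjusted p = 0.000268). All Combination values of these genes were below the Control tumors. ALDOA stood at 279, 336, 308 and 311 CPM, also below every Control tumor (-1.77 ± 0.19, adjusted p = 4.09e-07, corrected -1.02, adjusted p = 2.14e-05).

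All 7 genes of upper glycolysis were lower, and after correction 6 of them still were, while PFKP was then called higher (-0.58 as deposited, 0.23 ± 0.08 corrected, adjusted p = 0.0313). ALDOC was at -1.41 ± 0.11 (corrected -0.80, adjusted p = 4.62e-06) and PFKFB4 at -1.28 ± 0.15 (corrected -0.66). In lower glycolysis ENO1 was at -1.14 ± 0.10 (corrected -0.64, adjusted p = 1.24e-05) and PKM at -0.98 ± 0.09 (corrected -0.48), and both kept their calls. GAPDH went from -1.14 to -0.16 with correction (adjusted p = 0.215). PFKFB3 again changed from lower (-0.35) to higher (0.29, adjusted p = 0.00651).

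The genes that rose were SLC2A3, SLC16A1, LDHA, LDHB and DLD. SLC2A3 stood at 232, 292, 224 and 278 CPM against 151, 167 and 158 CPM in Control tumors, without overlap (0.59 ± 0.12, adjusted p = 0.000633, corrected 0.46, adjusted p = 0.00763). SLC16A1 stood at 260, 229, 223 and 217 CPM against 133, 141 and 147 CPM, also without overlap (0.62 ± 0.08, adjusted p = 2.4e-06, corrected 0.46, adjusted p = 2.9e-05). LDHA (0.33, corrected 0.18), LDHB (0.27, corrected 0.05) and DLD (0.22, corrected -0.02) were not called after correction. SLC2A1 stood at 663, 655, 635 and 689 CPM, above all Control tumors, with a difference of 0.10 as deposited (adjusted p = 0.372) and 0.58 ± 0.08 corrected (adjusted p = 1.47e-05). PDHA1 and PDHB were called lower only after correction (-0.31 and -0.32).

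**Figure D4:**
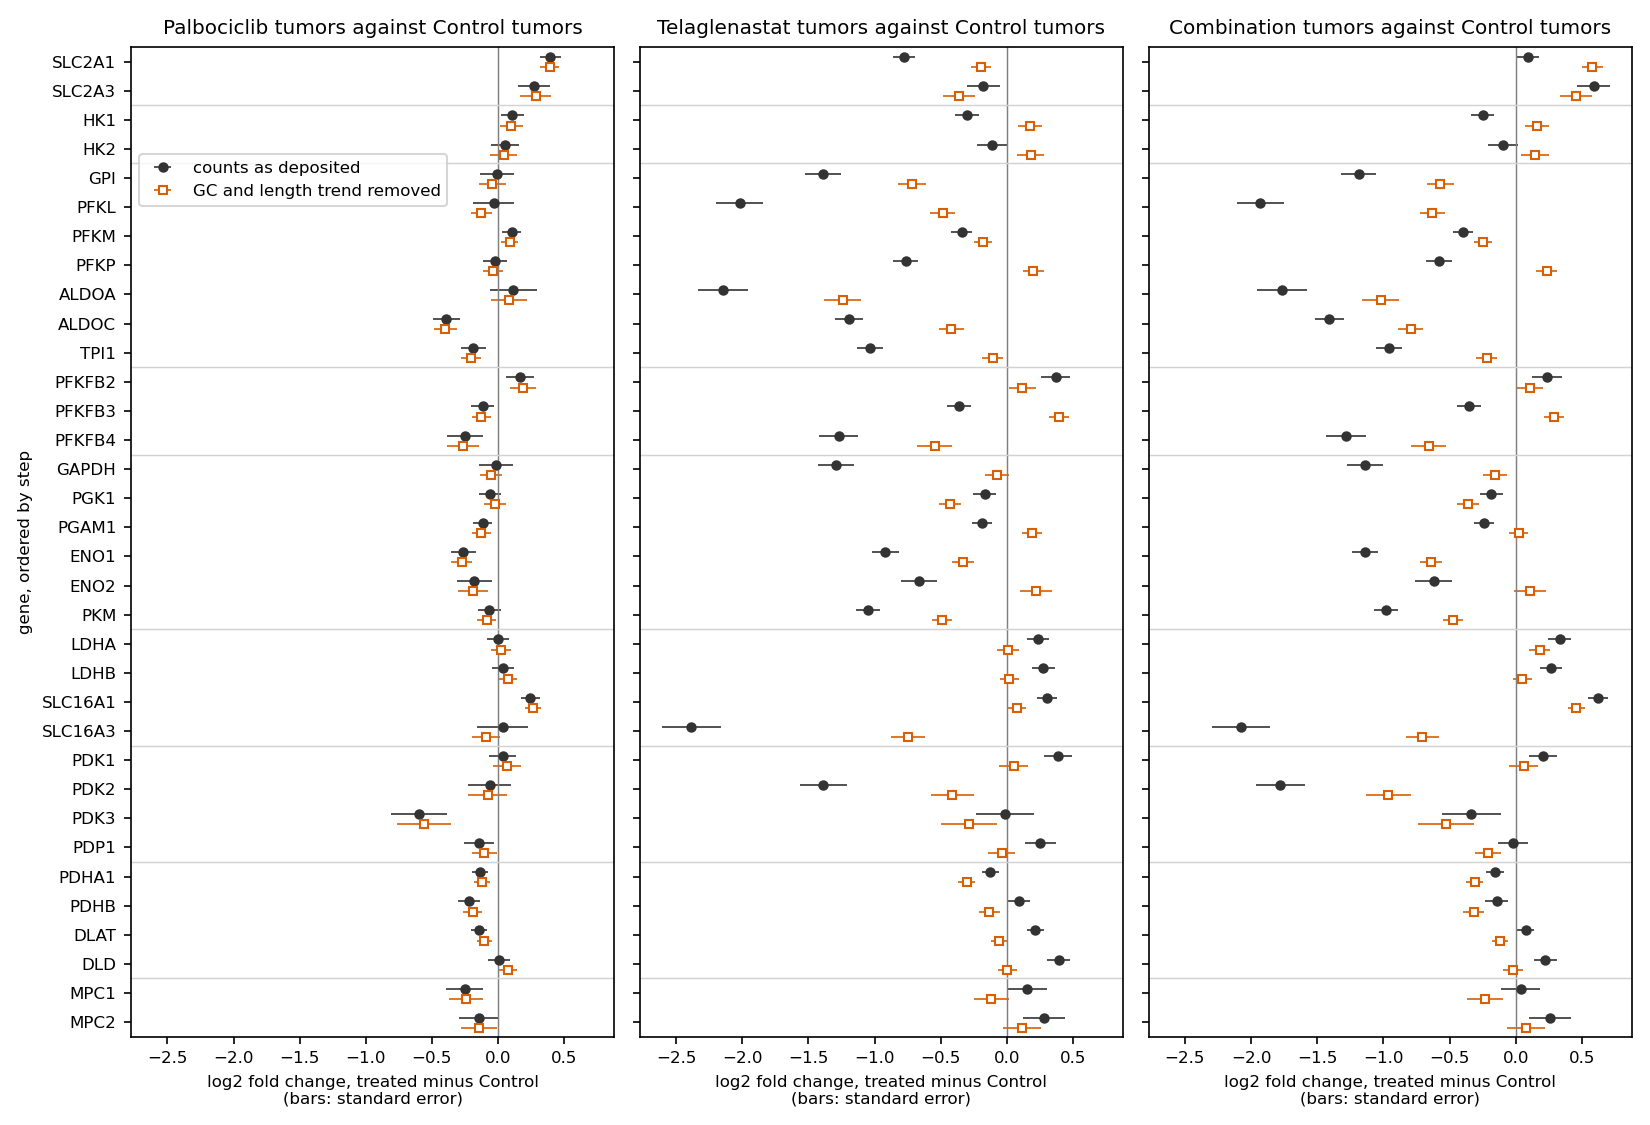
Log2 fold change of the 34 genes in Palbociclib (5), Telaglenastat (4) and Combination (4) tumors, each minus Control tumors (3), with standard errors. Filled circles are from the counts as deposited and open squares from counts with the GC and length trend removed. In the left panel the paired symbols lie close together and all lie between -0.6 and 0.4, in the other panels the squares lie nearer to 0 for most genes below -0.5, and SLC2A1, SLC2A3 and SLC16A1 are the only genes above 0.4 on the corrected scale in the right panel.

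Combination tumors were next compared with each single drug. Against Telaglenastat tumors 3 of the 34 genes were called, all higher, beside 8.93% of the genes tested higher and 9.89% lower. The count of higher genes was thus near the share over all genes. The 3 called genes were the 2 glucose transporters and SLC16A1. SLC2A1 stood at 663, 655, 635 and 689 CPM in Combination tumors and at 371, 356, 389 and 331 CPM in Telaglenastat tumors (0.88 ± 0.08, adjusted p = 2.6e-07, corrected 0.77, adjusted p = 4.34e-07). SLC2A3 stood at 232, 292, 224 and 278 CPM against 145, 151, 183 and 126 CPM (0.77 ± 0.11, adjusted p = 9.09e-05, corrected 0.82, adjusted p = 3.8e-05). SLC16A1 stood at 260, 229, 223 and 217 CPM against 199, 177, 180 and 189 CPM (0.32 ± 0.07, adjusted p = 0.0032, corrected 0.38, adjusted p = 0.000139). The groups did not overlap in any of these genes, and the corrected values differed little from those as deposited.

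The other 31 genes were not called in that comparison. For ALDOA the difference was 0.38 with a 95% interval from 0.04 to 0.73 (adjusted p = 0.145), for PFKL 0.09 with an interval from -0.27 to 0.45, and for SLC16A3 0.31 with an interval from -0.15 to 0.77. Corrected, ALDOC (-0.37 ± 0.09, adjusted p = 0.0081), ENO1 (-0.31 ± 0.08, adjusted p = 0.00895) and PDK2 (-0.55 ± 0.17, adjusted p = 0.0355) were called lower as well, beside 7.09% of all genes, and the 3 higher calls stood beside 8.41%. Without Palbociclib tumor 2, which is in neither compared group but shares their fit, 7 genes were called, 5 of them higher.

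Against Palbociclib tumors 17 genes were lower and 7 higher, beside 27.5% and 20.1% of the genes tested, and 12 and 3 after correction, beside 7.97% and 7.37%. SLC16A3 (-2.11 ± 0.20, corrected -0.61), PFKL (-1.90 ± 0.16, corrected -0.50), ALDOA (-1.88 ± 0.17, corrected -1.10) and PDK2 (-1.72 ± 0.17, corrected -0.88) were lowest. SLC2A1 was called lower as deposited (-0.30 ± 0.07, adjusted p = 0.00224) and stood at 0.19 after correction (adjusted p = 0.0575). SLC16A1 was higher both ways (0.38 ± 0.07, corrected 0.19, adjusted p = 0.0218).

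**Figure D5:**
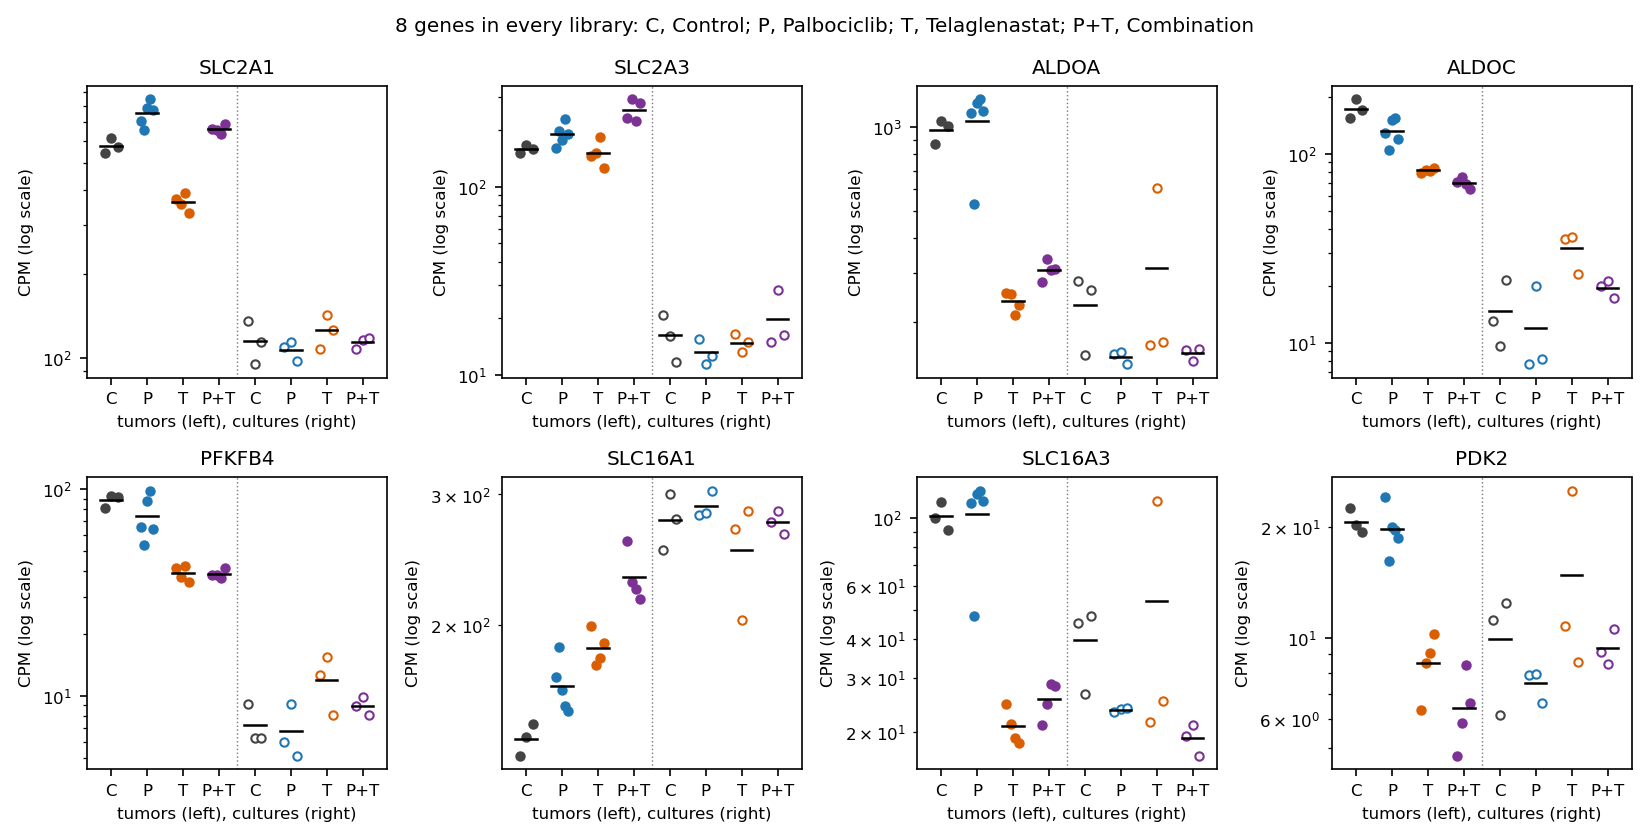
CPM on a log axis of 8 genes in every library, by condition, with tumors as filled and cultures as open circles and the mean of each group as a line. SLC2A1 and SLC2A3 in Combination tumors lie above all Telaglenastat tumors, SLC16A1 in tumors lies at or above 217 with both drugs and at or below 147 in Control, and the single high culture in ALDOA and SLC16A3 is Telaglenastat culture 2, at 607 and 113.

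The mix of isoforms shifted with these differences. Shares are of the summed CPM per kilobase within a family and are given as descriptions. SLC16A1 made up 70.2% ± 2.68 of SLC16A1 and SLC16A3 together in Control tumors (SD, n = 3), 73.3% ± 7.69 in Palbociclib tumors (n = 5), 93.8% ± 0.642 in Telaglenastat tumors (n = 4) and 93.8% ± 1.19 in Combination tumors (n = 4), where Control cultures were at 92.1% ± 2.57. PFKL was 10.3% ± 0.952 of the phosphofructokinases in Control tumors, 4.17% ± 0.277 in Telaglenastat tumors and 4.14% ± 0.368 in Combination tumors, and PFKP led throughout the tumors at means from 60.8% to 64.4%. Of the fructose-2,6-bisphosphate enzymes PFKFB4 held 56.2% ± 0.757 in Control tumors and 37.4% ± 1 in Telaglenastat tumors, and 9.51% ± 1.99 in Control cultures, where PFKFB3 led with 61.9% ± 2.55. Of the pyruvate dehydrogenase kinases PDK1 went from 50.6% ± 2.99 in Control tumors to 68.5% ± 3.06 and 71% ± 1.07 in Telaglenastat and Combination tumors, and was 25.6% ± 5.18 in Control cultures. As the members of a family differ in GC content, these shares carry the same GC trend as the counts.

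In the cultures, none of the 34 genes was called between any of the 5 pairs of conditions by edgeR, beside 0% of the 13985 genes tested in 4 of the 5 comparisons and 0.00715% for the Combination against Control. At an unadjusted p under 0.05, and against Control, 0 genes passed with Palbociclib, 4 with Telaglenastat and 2 with both drugs, and the Combination gave 2 against Palbociclib and 6 against Telaglenastat, beside 4.23%, 6.42%, 6.4%, 1.98% and 14.1% of all genes, and DESeq2 called none of the 34. PDK1 stood at 34.6, 23.7 and 28.8 CPM in Telaglenastat cultures and at 39.5, 35.3 and 31.5 CPM in Combination cultures, all above the Control cultures at 11.1, 18.7 and 23.4 CPM (0.70 ± 0.26 and 1.00 ± 0.26, adjusted p = 0.714 and 0.681). ALDOC stood at 35.4, 36.3 and 22.99 CPM in Telaglenastat cultures against 13.1, 9.60 and 21.4 CPM in Control cultures (1.10 ± 0.36, adjusted p = 0.711). Telaglenastat culture 2 was high in ALDOA, at 607 CPM beside 166 and 170, in PFKL, at 45.1 beside 12.6 and 14.7, and in SLC16A3, at 113 beside 21.5 and 25.2, and no gene was called without it either. Some of the genes were called without the filter on low counts, in the single fit of all libraries and without Telaglenastat culture 1, as given at the end.

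Whether a drug's difference in tumors differed from that in cultures was tested as an interaction in one fit of the 28 libraries. For Telaglenastat 14 genes were lower and 4 higher in tumors than in cultures in this sense, beside 18.5% and 15.6% of 15466 genes, and 7 and 1 after correction, beside 3.12% and 1.58%. The largest were SLC16A3 (-2.72, corrected -0.82, adjusted p = 0.0553), ALDOA (-2.49, corrected -1.45, adjusted p = 0.00327), PFKL (-2.28, corrected -0.58, adjusted p = 0.0395) and ALDOC (-2.20, corrected -1.43, adjusted p = 0.00467). Without Telaglenastat culture 2, as deposited, SLC16A3 was at -1.51, ALDOA at -1.58, PFKL at -1.43 and ALDOC at -2.09, so ALDOC then led, and 15 genes were called. For the Combination 4 were lower and 1 higher, beside 0.795% and 2.11%, namely ALDOC, PFKFB4, PDK2 and ENO2 lower and SLC16A1 higher. Corrected, 4 were lower and 1 higher as well, beside 1.29% and 1.3%, and as deposited without Telaglenastat culture 2 there were 11 calls. The ENO2 call was lost on leaving out any of 17 of the 28 libraries, and that of PDK2 any of 8. Without Control culture 2 these values were -0.69 and -1.35. For Palbociclib none was called by edgeR, beside 1.39% of all genes, 3 had an unadjusted p under 0.05, beside 14% of all genes, and DESeq2 called 1.

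Of the other 42 pathway genes 24 could be tested in tumors. In Telaglenastat tumors 9 of these were lower and 5 higher, beside 28.5% and 22.6% of all genes, and corrected 5 were lower and 1 higher, beside 8.49% and 6.3%. The largest as deposited were LDHD, a mitochondrial D-lactate dehydrogenase (1.18 CPM in Control and 0.151 CPM in Telaglenastat tumors, -2.95 ± 0.72, corrected -1.56, adjusted p = 0.178), SLC2A6, a lysosomal glucose transporter (-2.24 ± 0.41, corrected -0.78, adjusted p = 0.166), G6PC3, a glucose-6-phosphatase (-2.05 ± 0.23, corrected -1.59, adjusted p = 2.57e-05), and PC, pyruvate carboxylase (-1.78 ± 0.33, corrected -0.54, adjusted p = 0.237). In Combination tumors 7 were lower and 4 higher, beside 26.9% and 17.6%, and corrected 3 were lower and 2 higher, beside 13.1% and 13.4%. The largest as deposited were LDHD (-1.85 ± 0.65), PCK2, the mitochondrial phosphoenolpyruvate carboxykinase (-1.76 ± 0.19, corrected -1.05, adjusted p = 0.000161), PC (-1.68 ± 0.33) and SLC2A8 (-1.65 ± 0.36). For LDHD, PC and SLC2A8 only the values as deposited are given here, so whether they held after correction is left unsaid. In Palbociclib tumors ARRDC4 alone was called, higher by 0.37 ± 0.10 (adjusted p = 0.031, corrected 0.41). The 20 hypoxia-responsive genes outside glycolysis had medians of 0.02 in Telaglenastat and -0.13 in Combination tumors against Control. In Telaglenastat tumors 8 of them were lower and 6 higher, and in the corrected fit 2 were lower and 1 higher. In Combination tumors 6 were lower and 7 higher, and in the corrected fit 1 was lower and 4 higher. The shares of all genes beside these counts are those just given for each comparison. Of 6 regulators, HIF1A, EPAS1, ARNT, MYC, MLXIP and MLXIPL, 3 were lower and 1 higher in Telaglenastat tumors (corrected 2 and 1), and 2 and 1 in Combination tumors (corrected 1 and 2), beside the same shares of all genes. The largest difference was that of MLXIPL, a glucose-sensing transcription factor, in Telaglenastat tumors (-1.93 ± 0.25, adjusted p = 2.62e-06, corrected -0.63, adjusted p = 0.0492). MYC, a driver of glycolytic genes, stood at 177 CPM in Control and 141 CPM in Telaglenastat tumors (-0.43 ± 0.11, adjusted p = 0.00246, corrected 0.14, adjusted p = 0.478).

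Some values rest on reads that near-identical or overlapping genes could share. Pseudogenes of LDHA held 3.4% as many counts as LDHA itself, those of any other member 0.293% or less. CSNK1D, on the opposite strand and overlapping SLC16A3, held 21772 counts beside 12496 for SLC16A3, DCAF6 held 22158 beside 5476 for MPC2, and YOD1 held 11989 beside 7421 for PFKFB2. Partners on the opposite strand held fewer counts than the gene itself for DLD, PFKM and ALDOC. The libraries marked strand, but the strand setting of the counting is not given in the sources used here, so the values of these genes are uncertain to that extent. On the same strand, genes overlapping PGK1, ATP7A among them, held 5908 counts beside 184080 for PGK1. LRRC23 held 1353 beside 27129 for ENO2. Overlap was taken over whole gene spans, introns included, so the counts of a partner need not be reads that could be shared.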

How the data were processed

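Poly(A) RNA of 16 xenograft tumors and 12 cultures was measured. The authors made strand-marking libraries, sequenced single-end reads (CASAVA 1.8), aligned them with STAR and deposited raw read counts per gene. The submitters' processing notes name hg38. The annotation release, the STAR version and the strand setting are not given in the sources used here. All 28 columns were used, and groups follow the sample labels.

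Counts were fitted with edgeR 4.0.16 in R 4.3.3 (filterByExpr with a minimum count of 10, TMM scaling, glmQLFit and glmQLFTest, Benjamini-Hochberg threshold 0.05) as group means, in separate fits of tumors (14848 genes) and cultures (13985) and in a fit of all 28 libraries (15466) for tumors against cultures and interactions. Standard errors were derived from the log2 fold change and the F statistic, and log2 CPM used a prior count of 2. Exonic length and GC content came from GENCODE 29, matched by gene ID (57940 of 58278). The correction removed a spline trend on GC content and log2 length (4 degrees of freedom each, rlm in MASS 7.3.60.0.1) from each library as an offset. The fits were tested on simulated counts. DESeq2 1.42.0, other scalings, filters and fits, the replicate number as a block, and leaving out each library were alternatives.

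All 34 genes are named. Full values go to up to 4 called genes with the largest difference per tumor comparison with Control and in Control tumors against Control cultures, and to genes that stand alone in their step, and up to 4 further pathway genes are named per comparison by size. Values of PDK1, PDK3 and ALDOC in single comparisons, the comparisons of the Combination with each drug, and the promoters shown were chosen after their values were seen. The members and gene lists were chosen with earlier results of these data known. The study's methods describe the cultures as independent lines from 3 tumors a condition, and p-values measure the spread between these libraries.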

Additional observations from a re-analysis of the deposited data

Results flagged for a closer look

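The highest and lowest library of each tumor group of 4 or 5 were compared with the others by Dixon's ratio for all 34 genes, and 7 of 102 groups exceeded the critical value, where chance gives about 1 in 20. Palbociclib tumor 2 accounted for 4 of them, all low: PFKL at 36.9 CPM (others 69.7 to 76.2), PFKP at 169 CPM (others 223 to 239), ALDOA at 529 CPM (others 1127 to 1261) and SLC16A3 at 47.8 CPM (others 112 to 122). The same library had a GC slope of 0.0972, where the other Palbociclib tumors ranged from 0.316 to 0.364, and its part in these values was not tested. PFKFB3 was high in Telaglenastat tumor 1 at 48.3 CPM (others 44.0 to 44.6). LDHA was high in Telaglenastat tumor 3 at 3387 CPM (others 2772 to 2839). PDK3 was low in Combination tumor 3 at 5.89 CPM (others 10.6 to 11.6).

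For 23 of 102 gene and drug pairs, the difference from Control in tumors differed from that in cultures by the interaction test (edgeR, adjusted p under 0.05). With Telaglenastat the following were lower in tumors in log2 in this sense: SLC16A3 by -2.72, ALDOA -2.49, PFKL -2.28, ALDOC -2.20, PFKFB4 -1.91, PDK2 -1.88, GPI -1.41, GAPDH -1.41, TPI1 -1.13, PKM -1.06, ENO2 -1.02, ENO1 -0.90, SLC2A1 -0.80 and PFKP -0.75. PFKFB2 (0.72), SLC16A1 (0.54), DLD (0.50) and DLAT (0.42) were higher. Without Telaglenastat culture 2 the values of SLC16A3 (-1.51), ALDOA (-1.58), PFKL (-1.43), PDK2 (-1.25), PKM (-0.68), ENO1 (-0.55) and PFKP (-0.44) were smaller by over 1.5 times, and PFKP, DLAT (0.39) and DLD (0.40) were no longer called. The calls of DLAT (0.37) and DLD (0.42) were also lost without Control culture 2. With the correction for GC content and length, GPI (-0.79), PFKL (-0.58), ALDOA (-1.45), ALDOC (-1.43), PFKFB4 (-1.20) and PKM (-0.56) kept their calls, and the difference of GAPDH was -0.10 (adjusted p = 0.744). With the Combination ALDOC (-1.73), PDK2 (-1.60), PFKFB4 (-1.49) and ENO2 (-0.78) were lower and SLC16A1 (0.74) was higher, and all but ENO2 (-0.41, adjusted p = 0.352) kept their calls corrected.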

How the results depend on the processing

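Correcting for GC content and length changed the number of the 34 genes called from 2 to 4 for Palbociclib tumors against Control, from 25 to 12 for Telaglenastat tumors, from 24 to 15 for Combination against Palbociclib tumors, from 3 to 6 for Combination against Telaglenastat tumors and from 18 to 8 for the Telaglenastat interaction of tumors and cultures. Against Control, signs turned for HK1 (Telaglenastat 0.17, Combination 0.16), PFKP (0.20 and 0.23), PFKFB3 (0.39 and 0.29), PGAM1 (0.19 and 0.022) and ENO2 (0.22 and 0.11), DLAT (Telaglenastat -0.061) and DLD (Combination -0.020). PFKP also turned in the Telaglenastat interaction (0.23). Combination against Palbociclib tumors turned for SLC2A1 (0.19), HK1 (0.061), PFKP (0.28), PFKFB3 (0.42), ENO2 (0.30), LDHB (-0.024), DLAT (-0.014) and DLD (-0.092). The cause of the GC trend was not tested.

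Libraries with the same replicate number did not deviate together: of 21 such tumor pairs none had a correlation over 0.1 (-0.128 to 0.0896), and of 18 culture pairs 3 had (up to 0.14). With the number as a block, SLC2A1 alone was called for Palbociclib tumors, as ALDOC lost its call (-0.39, adjusted p up to 0.368 over its alternatives, the fits of the compared groups and of 28 libraries included), and no other count of calls moved by over 1.5 times. Block and correction together gave 12 calls for Telaglenastat tumors, 13 for Combination against Palbociclib, 5 for Combination against Telaglenastat tumors and 6 for the Telaglenastat interaction. In that fit with block and correction the turned signs were HK1 0.17, 0.16 and, against Palbociclib, 0.013, PFKP 0.21, 0.25, 0.28 and 0.25 in the interaction, PFKFB3 0.41, 0.31 and 0.43, ENO2 0.18, 0.054 and 0.27, PGAM1 0.21 and 0.039, SLC2A1 0.19, LDHB -0.044, DLAT -0.066 and -0.008, and DLD -0.10.

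Without a filter on low counts, 5 genes were called for Combination against Telaglenastat tumors, 14 for the Combination and 2 for the Palbociclib interaction, and in cultures 2 for Palbociclib, 1 for Telaglenastat and 3 for both drugs, each against Control, and 6 for the Combination against Telaglenastat. No share of all genes called is given for these fits without a filter. The same holds for the other alternatives, apart from the correction alone, and for the fits without 1 library, here and above. Whether their counts exceed the general rate among all genes was therefore not tested. Fits of the compared groups alone gave 1 for Palbociclib tumors and 5 for Combination against Telaglenastat tumors. A single fit of 28 libraries gave 1 for Palbociclib tumors and 1 for Combination against Telaglenastat cultures, and DESeq2 gave 1 for the Palbociclib interaction. Leaving out 1 library gave 1 to 3 calls for Palbociclib tumors (1 without Control tumor 2 or 3), 23 to 25 for Telaglenastat tumors, 19 to 22 for Combination tumors, 3 to 7 for Combination against Telaglenastat tumors (5 without Combination tumor 1, 7 without Palbociclib tumor 2), 28 to 30 for tumors against cultures, 0 to 2 for Combination against Telaglenastat cultures (2 without Telaglenastat culture 1), 0 to 1 for the Palbociclib interaction (1 without Control culture 2), 15 to 20 for the Telaglenastat interaction and 3 to 11 for the Combination interaction (11 without Telaglenastat culture 2, 3 without any Control tumor, Combination tumor 1 or 2, Control culture 2, or Combination culture 1 or 3). The calls of HK1, LDHA, LDHB, PFKFB2 and PGAM1 in Telaglenastat tumors and in Combination tumors those of HK1, LDHB, PGAM1 and DLD, were each lost without at least 1 library (adjusted p up to 0.19, with DLD down to 0.14). So were those of DLAT, DLD and PFKP in the Telaglenastat interaction (without Control culture 2, Telaglenastat culture 1 or Telaglenastat culture 2, adjusted p up to 0.0835) and of SLC2A3, PFKFB3, LDHB, DLD and MPC2 in Combination against Palbociclib tumors (adjusted p up to 0.128). Apart from leaving out libraries 1 at a time, 10 alternatives were fitted for tumors. In Telaglenastat tumors PGAM1 was called in 2 of them, and in Combination tumors HK1 in 4 and PGAM1 in 5. Groups of 3 to 5 libraries limit what can be called, and in cultures differences of moderate size could not be told from the spread.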
